A study of Mus musculus with 8 samples.

Results

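The fibroblast growth factor (FGF) and bone morphogenetic protein (BMP) genes of the mouse were followed through 6 genome-wide maps of 5-hydroxymethylcytosine (5hmC). The genes were taken by symbol, as every protein-coding gene of the GENCODE annotation of mm9 named Fgf, Fgfr or Bmp with a number and, in some cases, the letter a or b. This gave 37 symbols in 38 annotated entries, out of 22367 protein-coding genes on the nuclear chromosomes. They comprised 22 FGF ligands, 4 FGF receptors, 10 BMP ligands and Bmp1, a protease that shares the name only. The second entry of Fgfr1, 13.6 kb long, lies within the first and was not counted apart.

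5hmC was captured by GLIB-Seq, in which a glucose is attached to 5hmC, opened with periodate and coupled to biotin so that the modified fragments can be pulled down and sequenced. The material was the E14 line of mouse embryonic stem cells (ESCs), primary embryonic fibroblasts (MEFs) of C57BL/6 mice, brain and liver of adult C57BL/6 mice aged 8 weeks, and E14 ESCs transfected with a short hairpin against GFP (shGFP, the control) or Suz12 (shSuz12). Each of these 6 conditions had 1 library. The labels put the MEFs at embryonic day 11, whereas the study's methods give a later day. The hairpin cells were selected with puromycin, which the untransfected ESCs were not stated to have received, and the labels do not say which of the named Suz12 hairpins a library carries. Suz12 is a core subunit of Polycomb repressive complex 2 (PRC2), which trimethylates lysine 27 of histone H3, and its level in the hairpin cells was not analysed here. Brain and liver are mixtures of cells, and a difference in the cells present cannot be told apart from a difference within a cell.

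FGFs are secreted signals that bind receptor tyrosine kinases with heparan sulphate or a Klotho protein as a partner, and act largely through the MAP kinase cascade. BMPs belong to the TGF-beta family, bind pairs of serine/threonine kinase receptors and act through Smad proteins. Both families pattern the early embryo. In ESC culture, BMP4 helps to hold cells undifferentiated, whereas autocrine FGF4 primes them to leave that state, and many genes for such developmental signals are silent targets of PRC2 in ESCs. 5hmC is made from 5-methylcytosine by Tet enzymes, in mammals mostly at CpG dinucleotides.

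The values are the peaks the authors called in each library, and the sequencing depth is unknown because a peak list holds no read counts. The lists held 130408 to 217025 peaks, which covered between 3.15% of the genome in shSuz12 and 7.83% in MEFs. The lowest peak score, which rises as the p-value of the peak falls, was 80 in ESCs and liver, 50.02 in shGFP, 30.34 in shSuz12 and 30 in MEFs and brain, so the lists do not stop at a common level. The X chromosome was nearly bare in all 6 lists, with at most 0.339% of it under peaks, which bears on Fgf13, Fgf16 and Bmp15. With 1 library per condition differences between libraries were left untested, and 95% intervals of shares are exact (Clopper-Pearson) and cover counting error only. As a check of the labels, peaks were counted over defining genes of each cell type. Summed over the 5 ESC genes, 29.5% of the spans was covered in ESCs, against 4.69 to 11.2% in MEFs, brain and liver. The 5 fibroblast genes had 27.9% in MEFs and at most 11.5% in the other 3 cell types, and the 5 liver genes 20.1% in liver and at most 3.79%. The 4 neuronal and glial genes had 15.8% in brain, below ESCs (21.7%) and MEFs (18.6%). A single gene held most of the ESC sum (Esrrb, 51732 bp in ESCs) and of the liver sum (Apob, 16544 bp in liver). Nanog and Dppa4 had span peaks in ESCs alone of the 4 cell types, but Pou5f1 had none there and 607 bp in MEFs. Cyp2e1 was highest in liver, but Alb, Ttr and Serpina1a had no span peak there. Col1a1, Col1a2 and Col3a1 were highest in MEFs, but Thy1 had 2462 bp in ESCs and 598 bp in MEFs. The expression of the defining genes was not analysed here.

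In ESCs 17 of the 37 genes had a peak within 1 kb of the transcription start site (TSS), taken as the outermost 5′ end of the gene, or 45.9% (95% interval 29.5 to 63.1%), against 31.9% of all protein-coding genes. In MEFs it was 12 genes, 32.4% (18 to 49.8%), against 30.1% of all genes. Brain had 9, 24.3% (11.8 to 41.2%), against 20%, and liver 6, 16.2% (6.19 to 32.0%), against 29.4%. Among these 4 lists as deposited the count was highest in ESCs and lowest in liver, although the intervals are wide and include the share of all genes in all 4. The hairpin libraries had 19 genes in shGFP, 51.4% (34.4 to 68.1%), against 27.1%, and 10 in shSuz12, 27.0% (13.8 to 44.1%), against 21.4%. Among the 6 lists as deposited, the shGFP share was the one whose interval did not include the share of all genes. At a score of at least 80 in every list the counts were 17, 5, 4, 6, 10 and 1, in the order ESCs, MEFs, brain, liver, shGFP and shSuz12, against 31.9, 12, 5.45, 29.4, 19.0 and 5.07% of all genes. The interval for 10 of 37 genes, 13.8 to 44.1%, includes the 19.0% of shGFP, so the shGFP exception did not hold at that score. ESCs stayed above liver, whose list also ends at 80, but liver was no longer lowest, since MEFs and brain came below it. Brain was also below liver within 500 bp of the TSS (3 against 5), and both had 6 with equal numbers of peaks. Within 2 kb, a window that can only add genes, shSuz12 had 18 genes and shGFP 22. With every coding TSS counted they had 17 and 22. The shares of all genes are not given for these windows, for 500 bp or for equal numbers of peaks.

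**Figure D1:**
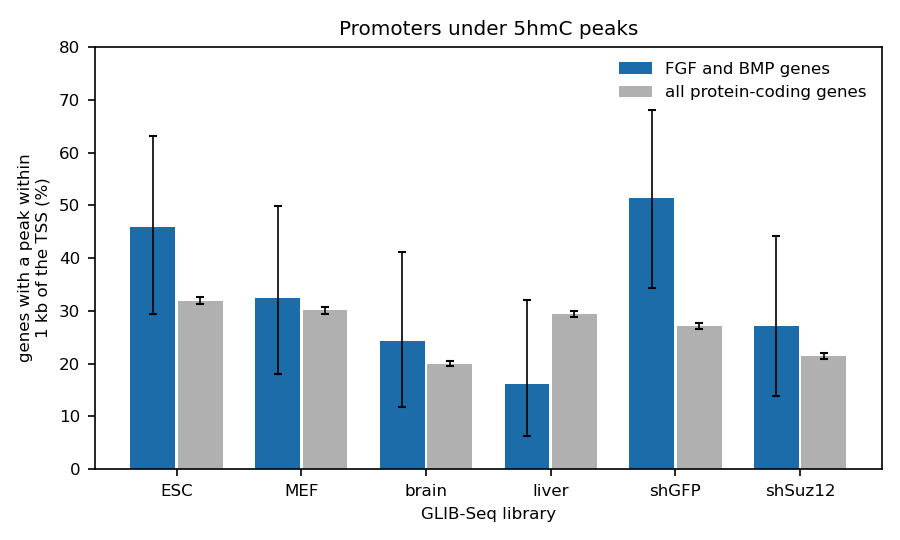
Percentage of genes with at least 1 bp of a 5hmC peak within 1 kb of the TSS (vertical axis) in each of the 6 libraries (horizontal axis). Blue bars are the 37 FGF and BMP genes and grey bars all 22367 protein-coding genes, with exact 95% intervals that cover counting error only. The blue bar stands highest in shGFP (51.4%) and ESCs (45.9%) and lowest in liver (16.2%), where it lies below the grey bar (29.4%).

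The TSS itself lay under a peak in 5 of the 37 genes in ESCs (Fgf1, Fgf6, Fgf14, Fgf21 and Fgf23), against 11.8% of all genes. It did so in 5 genes in MEFs (Fgf1, Fgf7, Fgf10, Fgf21 and Bmp8b; 6.87% of all genes), in none in brain (4.46%) and in 2 in liver (Fgf21 and Bmp8b; 5.38%). In shGFP there were 5 (Fgf1, Fgf6, Fgf21, Fgf23 and Bmp8b; 11.2%) and in shSuz12 3 (Fgf7, Fgf23 and Bmp3; 5.83%). Peaks lay on both sides of the TSS. In ESCs 13 genes had a peak in the 1 kb upstream and 11 in the 1 kb downstream (24.5 and 22.7% of all genes), and in shGFP 14 and 15 (20.6 and 19.8%). In shSuz12 the upstream side was covered in 9 genes and the downstream side in 4, against 15.1 and 13.7% of all genes.

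No FGF or BMP promoter was covered in all 6 lists, and 7 were bare in all of them, those of Fgf4, Fgf11, Fgf12, Fgf13, Fgf16, Fgfr2 and Bmp4. The same counts over all genes are not given here, so neither can be set against a background. Of the 7, Fgfr2 and Fgf13 had peaks at other coding TSSs, Fgfr2 with 2000 bp in ESCs and in MEFs and Fgf13 with 680 bp in MEFs. Of the 17 promoters covered in ESCs, 8 were bare in MEFs, brain and liver (Fgf3, Fgf6, Fgf8, Fgf14, Fgf15, Fgf23, Fgfr4 and Bmp10). This is 47.1% (23 to 72.2%), against 23.9% of all promoters covered in ESCs. For Fgfr4 this holds at the outermost TSS only. When every coding TSS of Fgfr4 was counted, peaks were listed in MEFs (1683 bp), brain (1691 bp) and liver (2000 bp). The ESC coverage was small for Bmp10 (56 bp) and Fgf15 (89 bp). Taken one cell type at a time, 12 of the 17 were bare in MEFs (47.6% of all promoters covered in ESCs), 13 in brain (59.3%) and 12 in liver (53.9%). The list of 8 is mixed. It holds ligands of early patterning such as Fgf8 and Fgf3, 2 of the 3 endocrine FGFs, Fgf6, Fgf14, Bmp10 and a receptor. The promoter of the endocrine FGF outside it, Fgf21, was covered in MEFs and liver as well as in ESCs. In the other direction, 7 of the 12 promoters covered in MEFs were bare in ESCs (Fgf2, Fgf7, Fgf10, Fgf20, Bmp2, Bmp5 and Bmp15; 44.3% of all promoters covered in MEFs were), as were 5 of the 9 covered in brain (Fgf5, Fgf7, Bmp2, Bmp5 and Bmp8a; 35.1%) and Fgf20 alone of the 6 covered in liver (49.9%). For Fgf10 the MEF coverage holds at the outermost TSS only, since the window of its coding TSS was bare in MEFs.

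**Figure D2:**
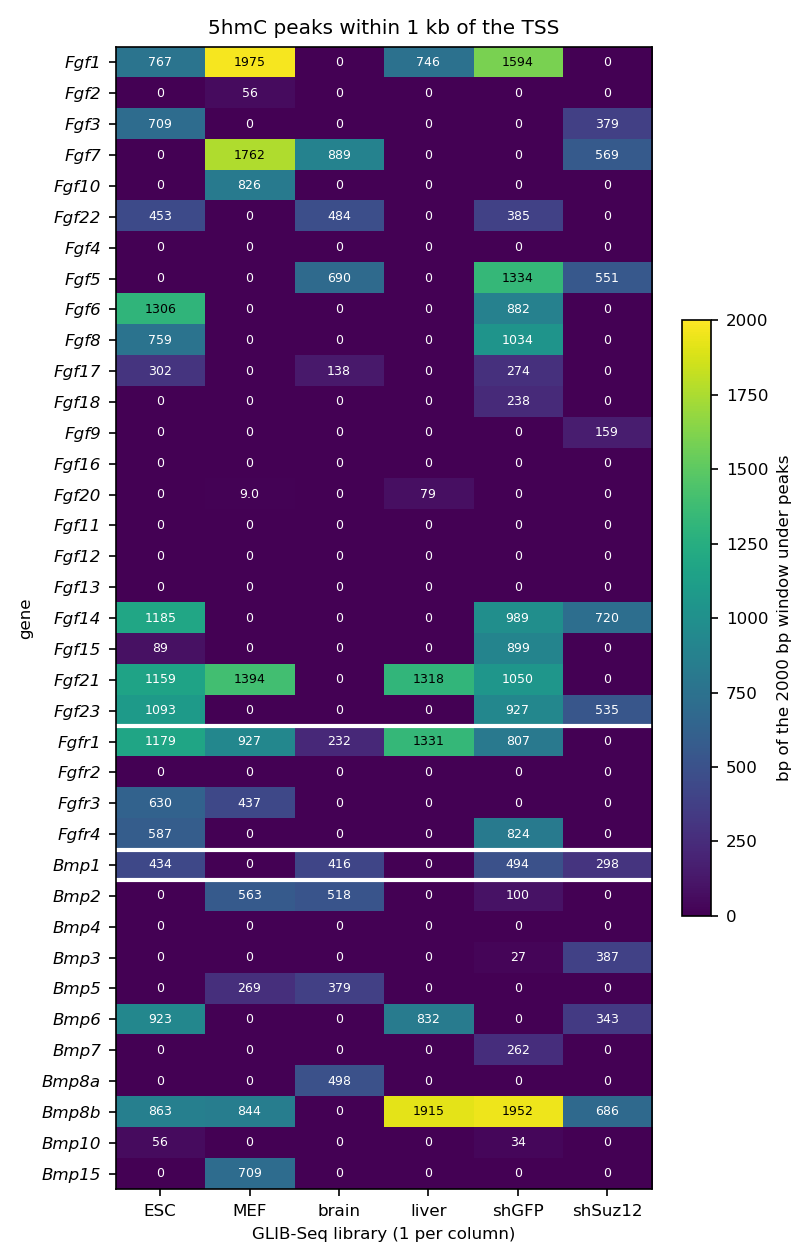
Base pairs under 5hmC peaks in the 2000 bp around the TSS (colour and number) for each of the 37 genes (vertical axis) in each library (horizontal axis). White lines part FGF ligands, FGF receptors, Bmp1 and BMP ligands. Bmp8b, Fgf1, Fgf21 and Fgfr1 have the largest sums over the libraries, the liver column is filled in 6 genes, and most cells filled in the shGFP column stand at 0 in the shSuz12 column.

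The promoters that show these contrasts most plainly are given here with their sequence, from the mm9 genome and on the strand of the gene, with each CpG in capitals because CpG is where most 5hmC is made. They are stretches of at most 300 bp upstream of the TSS that lie under peaks. The Fgf21 stretch, 193 bp just before the TSS (chr7:52870861-52871053, minus strand), was under a peak in ESCs, MEFs, liver and shGFP and bare in brain and shSuz12. The Fgf8 stretch, at -813 to -514 bp from the TSS (chr19:45817919-45818218, minus strand), and the Fgf14 stretch, at -491 to -192 bp (chr14:125076541-125076840, minus strand), were under peaks in ESCs and shGFP and bare in the other 4 lists. The Fgf7 stretch, at -532 to -233 bp (chr2:125859862-125860161, plus strand), was under a peak over its whole length in MEFs and over 131 bp in shSuz12. The Bmp8b stretch, at -784 to -485 bp (chr4:122781624-122781923, plus strand), was covered in liver, shGFP and shSuz12.
Fgf21: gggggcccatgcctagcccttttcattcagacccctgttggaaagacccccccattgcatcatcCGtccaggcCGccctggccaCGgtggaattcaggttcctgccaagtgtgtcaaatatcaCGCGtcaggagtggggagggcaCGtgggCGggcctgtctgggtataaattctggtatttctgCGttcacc
Fgf8: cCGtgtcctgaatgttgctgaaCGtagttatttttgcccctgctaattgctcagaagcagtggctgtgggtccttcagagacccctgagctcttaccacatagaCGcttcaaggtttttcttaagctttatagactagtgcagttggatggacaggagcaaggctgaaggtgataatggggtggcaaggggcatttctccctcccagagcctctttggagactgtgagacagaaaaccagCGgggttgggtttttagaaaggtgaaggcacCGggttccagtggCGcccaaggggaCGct
Fgf14: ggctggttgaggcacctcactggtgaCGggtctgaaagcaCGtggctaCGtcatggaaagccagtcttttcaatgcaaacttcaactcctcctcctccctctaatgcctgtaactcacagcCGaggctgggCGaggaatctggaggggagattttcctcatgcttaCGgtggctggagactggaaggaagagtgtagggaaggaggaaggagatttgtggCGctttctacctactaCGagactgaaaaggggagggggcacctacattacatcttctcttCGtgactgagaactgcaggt
Fgf7: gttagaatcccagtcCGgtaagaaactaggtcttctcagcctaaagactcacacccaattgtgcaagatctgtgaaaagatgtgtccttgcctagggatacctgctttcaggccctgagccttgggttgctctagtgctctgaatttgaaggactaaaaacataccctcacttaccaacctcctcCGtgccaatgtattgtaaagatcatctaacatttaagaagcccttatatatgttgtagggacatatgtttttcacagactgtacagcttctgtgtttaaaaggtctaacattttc
Bmp8b: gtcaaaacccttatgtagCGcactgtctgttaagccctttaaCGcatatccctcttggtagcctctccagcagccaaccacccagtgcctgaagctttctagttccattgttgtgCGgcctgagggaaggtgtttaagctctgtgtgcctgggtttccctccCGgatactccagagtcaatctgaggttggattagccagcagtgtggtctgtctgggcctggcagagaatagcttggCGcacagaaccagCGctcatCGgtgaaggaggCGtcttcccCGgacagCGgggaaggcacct
They hold 8, 7, 9, 2 and 10 CpGs, or 4.15, 2.33, 3.0, 0.667 and 3.33 per 100 bp in the order printed, against 0.834 over the genome. The Fgf7 stretch was the only one of the 5 with fewer CpGs per 100 bp than the genome. DNA upstream of a TSS is a closer comparison, and the 300 bp before the TSS held a median of 9 CpGs over all genes and 11 over the 37. Of the stretches of 300 bp, Fgf8 and Fgf7 were below both medians, Fgf14 equalled the lower one and Bmp8b lay between them.

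Fgf21, a fasting hormone made mainly by the liver, is a short gene of 1.58 kb (chr7:52869277-52870860, minus strand). Its promoter window had 1159 bp under peaks in ESCs, 1394 in MEFs, 0 in brain, 1318 in liver, 1050 in shGFP and 0 in shSuz12. A peak spanned the TSS in 4 libraries, from -332 to 826 bp with a score of 468 in ESCs, from -393 to 1056 bp (261) in MEFs, from -193 to 1799 bp (282) in liver and from -290 to 628 bp (136) in shGFP. In liver the gene was covered from end to end. In shSuz12 the nearest peak ended 1241 bp upstream of the TSS, and in brain the nearest peak was 11642 bp away.

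Fgf8, which organises gastrulation, the limb and the midbrain-hindbrain boundary (chr19:45811288-45817405, minus strand), had a pair of peaks that flanked the TSS and left it bare in the ESC lists. They lay at -1263 to -328 and 914 to 2152 bp in ESCs and at -1246 to -269 and 698 to 2439 bp in shGFP, with scores between 129 and 290. In shSuz12 the upstream peak was absent from the list and the nearest peak began at 1120 bp. The window held 759 bp in ESCs, 1034 bp in shGFP and 0 in the other 4 libraries. Over the whole gene 44.1% was covered in ESCs, 15.8% in MEFs, none in brain and liver, 52.8% in shGFP and 26.2% in shSuz12.

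Fgf14, whose protein stays in the cell and binds voltage-gated sodium channels, is the longest of the ligand genes, at 699 kb (chr14:124377129-125076349, minus strand). Its 5′ end carried peaks at -850 to 50 and 717 to 2130 bp in ESCs and at -654 to -30 and 637 to 2235 bp in shGFP. In shSuz12 there were peaks of lower score, 53.9 to 76.2, from 74 to 2095 bp, and the window held 1185, 989 and 720 bp in ESCs, shGFP and shSuz12, respectively. It held none in MEFs, brain and liver. Over the whole span at most 0.43% was under peaks in any list.

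Fgf7, the keratinocyte growth factor that mesenchymal cells send to epithelia (chr2:125860394-125916921, plus strand), showed the reverse order of cell types. In MEFs a single peak of 3717 bp ran from -762 to 2954 bp with a score of 522. Brain had one from 111 to 1984 bp (90.9) and shSuz12 one from -363 to 205 bp (44.8), and the windows held 1762, 889 and 569 bp. The windows of ESCs, liver and shGFP were bare. Over the gene, 24.6% of the span was covered in MEFs, 9.26% in brain, 1.99% in ESCs, 1.60% in shGFP, 0.364% in shSuz12 and none in liver.

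Bmp8b, a BMP known for its part in the formation of germ cells (chr4:122782408-122809342, plus strand), had the largest promoter sum of the 37 genes, 6260 bp over the 6 libraries. The window held 863 bp in ESCs, 844 in MEFs, 0 in brain, 1915 in liver, 1952 in shGFP and 686 in shSuz12. A peak ran through the TSS from -1014 to 914 bp in liver (score 338) and from -952 to 1108 bp in shGFP (250). In ESCs it began at 137 bp, downstream of the TSS, and in shSuz12 it ended at -315 bp, upstream of it, so the same window was covered on opposite sides.

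Fgf15, the gut hormone that restrains bile acid synthesis (chr7:152082437-152086858, plus strand), is shown beside them. Its window had 89 bp in ESCs and 899 bp in shGFP, where peaks lay at -1608 to -650 and 452 to 1357 bp, and 0 in the other 4 libraries. In shSuz12 the nearest peak was 7986 bp from the TSS.

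**Figure D3:**
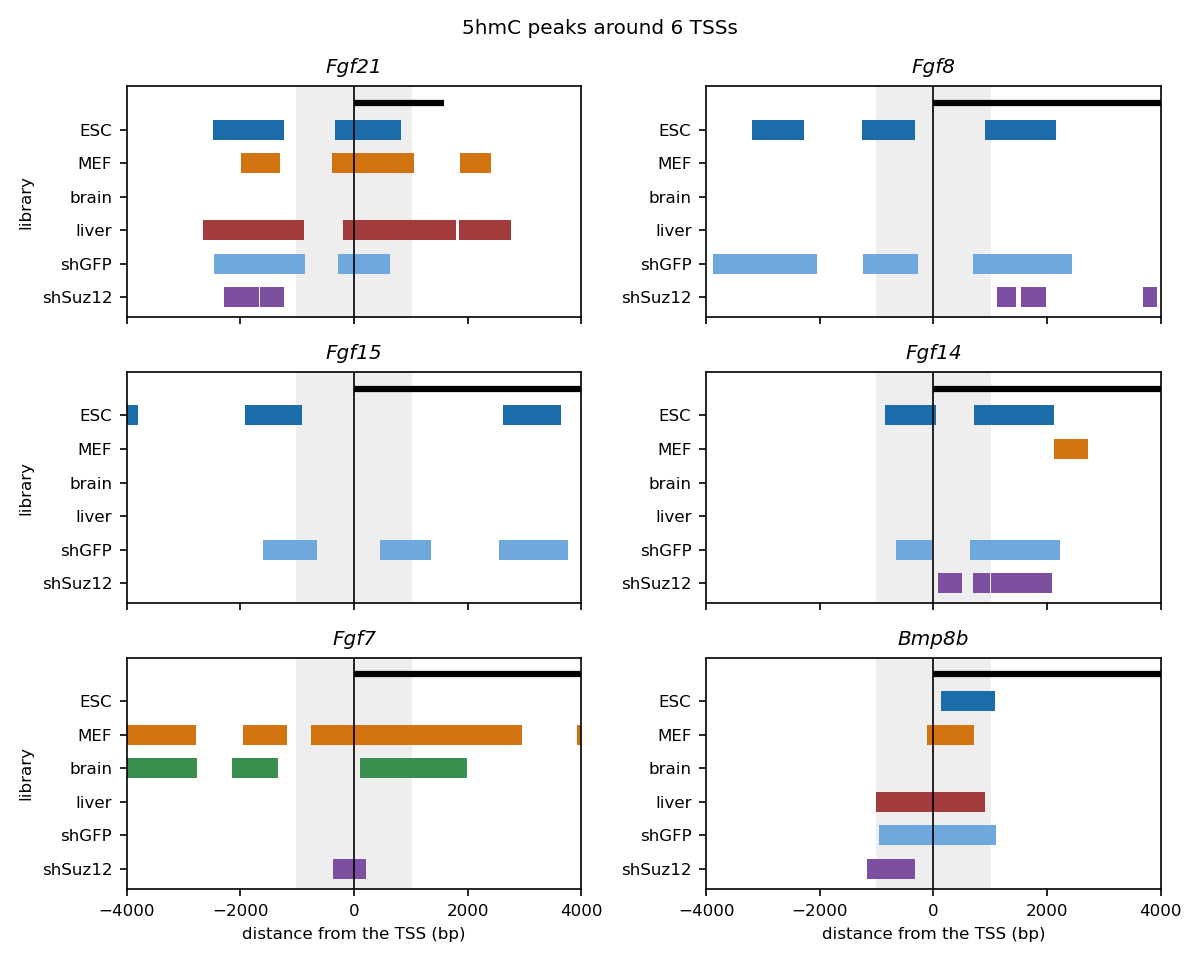
5hmC peaks (coloured bars) within 4000 bp of the TSS of 6 genes, by distance from the TSS in the direction of transcription (horizontal axis, bp) and library (vertical axis). The grey band marks 1000 bp on each side of the TSS and the black bar the gene. Fgf21 has a peak over the TSS in ESCs, MEFs, liver and shGFP. Fgf8, Fgf15 and Fgf14 have promoter peaks in ESCs and shGFP, and Fgf7 has its longest peak in MEFs. Peaks of Bmp8b lie downstream of the TSS in ESCs and upstream of it in shSuz12.

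Among the remaining FGF ligands, the subfamilies did not move as blocks. Fgf1, acidic FGF and a ligand of all FGF receptors, had 767 bp of its promoter window covered in ESCs, 1975 in MEFs, 0 in brain, 746 in liver, 1594 in shGFP and 0 in shSuz12. Its span was covered to 27.4, 26.9, 27.3, 43.3, 22.6 and 9.43% in that order, so liver was highest and shSuz12 lowest. Fgf2, basic FGF, a mitogen of fibroblasts, was nearly bare at its outermost TSS (56 bp in MEFs, 0 elsewhere). With every coding TSS counted, 1268 bp were covered in MEFs, 1192 in brain, 217 in shGFP, 84 in liver and 0 in ESCs and shSuz12. Its span was covered to 11.3% in MEFs and 10.8% in brain but to between 2.28 and 2.72% in the other 4 lists.

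In the subfamily of Fgf7, Fgf22, which helps to organise synapses in the brain, had 71.8% of its 1.94 kb covered in ESCs, none in MEFs, 73.4% in brain, 39.9% in liver, 68.3% in shGFP and 30.1% in shSuz12. The peak began 547 bp after the TSS in ESCs, 516 bp in brain and 615 bp in shGFP, and beyond 1 kb, at 1166 and 1356 bp, in liver and shSuz12. Fgf10, which starts the lung and limb buds, had a peak at its outermost TSS in MEFs alone (826 bp), and at most 1.47% of its 122 kb was covered. Around its 1 coding TSS MEFs had 0 bp, and shSuz12 was the only list with a peak, of 219 bp. Fgf3, a signal for the inner ear, had 709 bp of its window covered in ESCs and 379 bp in shSuz12 but none in shGFP, and its span was bare in MEFs, brain and liver.

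In the subfamily of Fgf4, Fgf4 itself, the FGF that ESCs secrete, was bare in every list, both over the gene and within 1 kb of its TSS. The nearest peak was 1508 bp from the TSS in shGFP, 8903 bp in ESCs and 57678 bp in liver. Fgf5, which marks the epiblast after implantation, had a bare promoter in ESCs but 1334 bp covered in shGFP, 551 bp in shSuz12 and 690 bp in brain, with a peak that ended 311 to 450 bp upstream of the TSS. It was the one FGF or BMP promoter with a peak of a score of at least 80 in shSuz12. Fgf6, expressed in developing muscle, had a peak across the TSS in ESCs (1306 bp, score 517) and shGFP (882 bp, 78.0), and its window was bare in the other 4 lists.

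Fgf17 and Fgf18, close relatives of Fgf8, were covered in all 6 lists over the span, Fgf17 to between 12.1% in liver and 50.3% in brain, and Fgf18 to between 3.08% in liver and 24.0% in MEFs. At the promoter Fgf17 had 302 bp in ESCs, 274 in shGFP and 138 in brain, and Fgf18 238 bp in shGFP alone. Fgf9, a signal of testis and lung development, and Fgf20 had at most 12.2% and 7.38% of the span covered and no peak in the gene in liver. Fgf20 lies on chromosome 8, which was covered 2.04 times as much as the genome in ESCs, 1.96 times in shGFP and 2.01 times in shSuz12, but 1.18 to 1.20 times in the other 3 lists. Fgf16, on the X chromosome, was bare throughout.

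The intracellular FGFs, which are not secreted and do not act through the receptors, were mostly bare. Fgf12, Fgf13 and Fgf14 span 285, 506 and 699 kb, and no more than 1.58% of any of them was covered in any list. Fgf11, of 5.79 kb, had 21.9% covered in ESCs and 28.9% in liver and none elsewhere. Fgf13 is on the X chromosome and had 1284 bp covered, in MEFs. The endocrine FGF not yet described, Fgf23, a bone hormone that lowers phosphate, had a peak over its TSS in all 3 ESC libraries, with 1093, 927 and 535 bp of the window covered in ESCs, shGFP and shSuz12 and scores of the peak over the TSS of 237, 142 and 55.9. In MEFs, brain and liver neither its promoter nor its span had a peak.

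The 4 FGF receptor genes had peaks in the gene in all 6 lists, whereas 19, 15, 11, 7, 18 and 16 of the 22 FGF ligands did, in the order ESCs, MEFs, brain, liver, shGFP and shSuz12. Over all protein-coding genes the shares with a peak in the gene were 67.8, 61.0, 60.7, 57.9, 63.4 and 63.0%. Fgfr1, the receptor of most mesenchymal FGF signals (chr8:26624126-26686186, plus strand), was covered to 60.2% in ESCs, 46.7% in MEFs, 32.2% in brain, 19.0% in liver, 53.3% in shGFP and 34.4% in shSuz12. It too lies on chromosome 8, the chromosome covered about 2.04 times as much as the genome in ESCs. Its promoter window held 1179 bp in ESCs, 927 in MEFs, 232 in brain, 1331 in liver, 807 in shGFP and 0 in shSuz12. A peak just downstream of the TSS began at 66, 51, 23 and 415 bp in ESCs, MEFs, liver and shGFP, and in shSuz12 the nearest peak was 2988 bp away.

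Fgfr2, needed for limb and lung budding, is annotated with 1 transcript of 3.01 Mb that runs over 31 other protein-coding genes and makes up 53.2% of the summed spans of the 37 genes. Its other 28 transcripts lie within 104 kb (chr7:137306026-137410322, minus strand). Over these 104 kb, 18.5% was covered in ESCs, 54.4% in MEFs, 36.0% in brain, 23% in liver, 13.9% in shGFP and 7.44% in shSuz12. MEFs were highest and shSuz12 lowest. No peak lay within 1 kb of the TSS of the long transcript, and at the outermost TSS of the shorter ones brain alone had a peak, of 511 bp. Windows of 1 kb on each side of all 7 coding TSSs of the gene held 2000 bp under peaks in ESCs and MEFs, 511 in brain, 1768 in liver, 1752 in shGFP and 0 in shSuz12.

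Fgfr3, which restrains bone growth (chr5:34064373-34079716, plus strand), was covered to 51.4% in ESCs, 25.7% in MEFs, 53.8% in brain, 71.7% in liver, 22.3% in shGFP and 13% in shSuz12. Its promoter had a peak in ESCs (-862 to -233 bp, score 134) and MEFs (-753 to -317 bp, 37.9). Fgfr4, the receptor through which the liver reads Fgf15 (chr13:55254001-55270120, plus strand), was covered to 63.8, 20.8, 23, 57.6, 55.1 and 29.1% in the order ESCs, MEFs, brain, liver, shGFP and shSuz12. ESCs, liver and shGFP were the high libraries. A peak reached into the promoter window in ESCs (from 413 bp, 587 bp covered) and shGFP (from 176 bp, 824 bp covered), while in MEFs, brain, liver and shSuz12 the nearest began 1428, 1280, 1370 and 1414 bp after the TSS.

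Of the 10 BMP ligands, 7, 9, 6, 6, 8 and 7 had a peak in the gene and 3, 4, 3, 2, 5 and 3 a peak at the promoter, in the order ESCs, MEFs, brain, liver, shGFP and shSuz12. Bmp4, the BMP used to maintain ESCs, had a bare promoter in every list, and the nearest peak was 4877 to 6047 bp from the TSS, inside the gene. Bmp2, its closest relative, had 563 bp of its promoter window under a peak in MEFs, 518 in brain and 100 in shGFP, and its span was bare in brain, liver and shSuz12. Bmp7, needed for kidney and eye, had the highest span coverage of the BMP ligands in 5 of the 6 lists, with 41.6% in ESCs, 46.7% in MEFs, 40.3% in brain, 14.8% in liver, 24.5% in shGFP and 20% in shSuz12. In liver Bmp4 was higher, at 31.8%.

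Bmp5 and Bmp3 were covered mainly in MEFs. Bmp5, whose loss gives the short-ear mouse, had 17.3% of its span covered in MEFs, 4.82% in brain and between 0.507 and 1.26% elsewhere. Bmp3, which counteracts other BMPs in bone, had 22.2% in MEFs, none in ESCs and 2.73 to 5.20% in the other 4 lists. Bmp6, a signal from the liver endothelium that controls iron through hepcidin, was also highest in MEFs, at 20.3%, with 5.91% in liver, where its promoter window had 832 bp under a peak, against 923 bp in ESCs and 343 bp in shSuz12. Bmp8a was covered to 30.5% in ESCs, 14.7% in MEFs, 16.4% in shGFP and 17.1% in shSuz12 and was bare in brain and liver, although brain had 498 bp under a peak at its promoter. Bmp10, a BMP of the heart, had no peak in the gene and 56 and 34 bp at the edge of the promoter window in ESCs and shGFP. Bmp15, an oocyte factor on the X chromosome, had a single peak, of 709 bp, in MEFs.

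Bmp1, which cleaves procollagen and the BMP antagonist chordin, was covered mainly along the gene. Its 45.7 kb were covered to 19.5% in ESCs, 22.4% in MEFs and in brain, 65.5% in liver, 14.8% in shGFP and 5.97% in shSuz12, and liver stood far above the others. The window at its outermost TSS had 434 bp covered in ESCs, 416 in brain, 494 in shGFP, 298 in shSuz12 and none in MEFs and liver. When every coding TSS of Bmp1 was counted, 2000 bp were covered in liver and 2276 in brain. ESCs then had 1617 bp, shGFP 672, shSuz12 496 and MEFs 0.

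**Figure D4:**
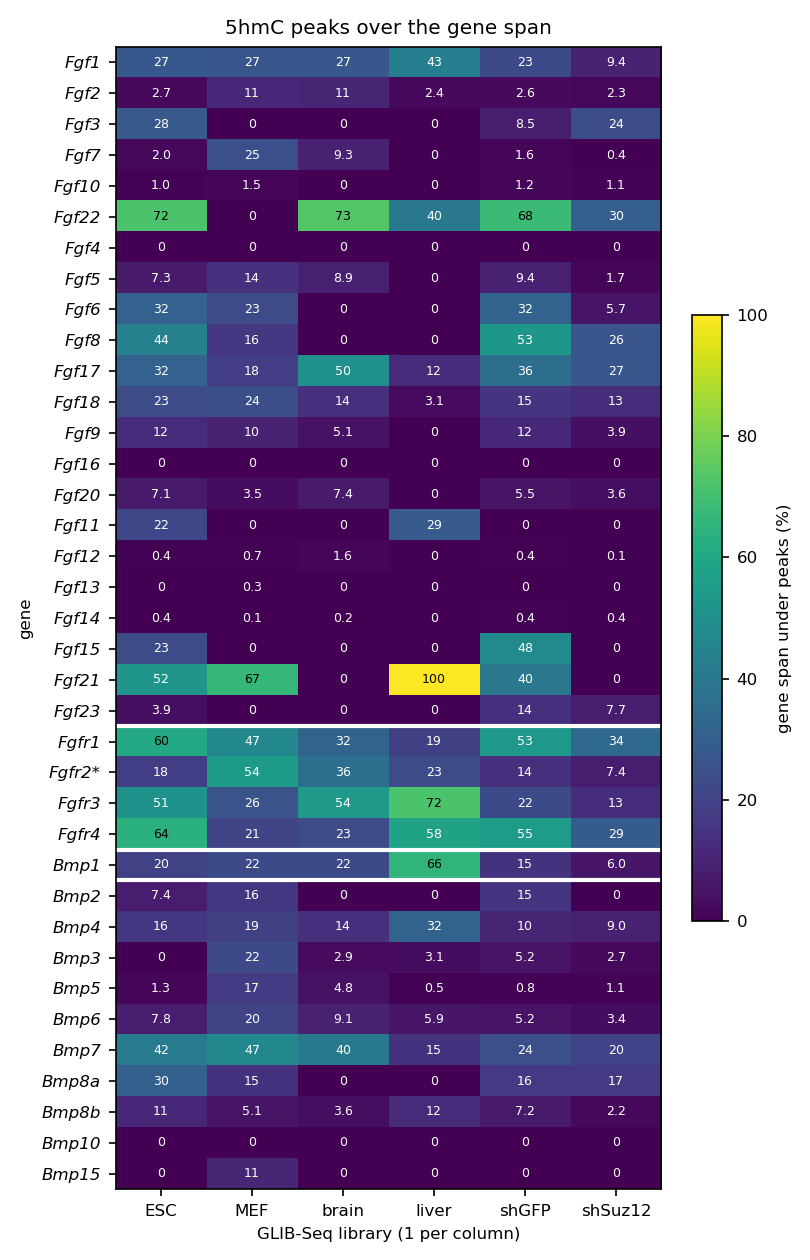
Percentage of the gene span under 5hmC peaks (colour and number) for each of the 37 genes (vertical axis) in each library (horizontal axis). White lines part FGF ligands, FGF receptors, Bmp1 and BMP ligands, and Fgfr2* is Fgfr2 without its transcript of 3.01 Mb. The receptor block is filled in every library, the liver column holds both the highest value (Fgf21, 100%) and many zeros among the ligands, and Fgf4, Fgf16 and Bmp10 are bare throughout.

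Over the 37 genes, the median share of the span under peaks was 12.2% in ESCs and 14.7% in MEFs, against medians of 8.77 and 4.43% over all protein-coding genes. It was 3.61% in brain and 0 in liver, against 6.43 and 4.44%. In shGFP it was 9.37% (4.17% over all genes) and in shSuz12 3.40% (3.05%). Summed over all bases of the 37 spans, the covered share was 10.2, 13, 11.8, 7.81, 7.06 and 4.77% in the order ESCs, MEFs, brain, liver, shGFP and shSuz12, and without the long Fgfr2 transcript it was 7.46, 10.2, 6.99, 5.82, 5.85 and 3.47%. All gene spans together had 11.6, 11.8, 13.9, 12.8, 7.41 and 5.23%. Without the long transcript the sum was below that of all genes in each library, whereas the median was above that of all genes in ESCs, MEFs, shGFP and shSuz12. Fgf12, Fgf13 and Fgf14, which are long and almost bare, weigh in the sum and not in the median. Exons of the 37 genes, counted without the long transcript, were covered 3.88, 2.33, 2.75, 3.77, 3.82 and 3.96 times as much as their introns, against 2.56, 1.19, 1.65, 1.82, 2.69 and 2.61 times over all genes. Their exons were covered less than those of all genes in ESCs (26.1 against 27.2%), brain (18.03 against 22.1%), liver (19.8 against 22.3%) and shSuz12 (12.3 against 12.5%). They were covered more in MEFs (22.6 against 13.9%) and shGFP (20.2 against 18.1%). Summed over all bases, introns of the 37 genes were covered less than those of all genes in each library, with 6.72 against 10.6% in ESCs. Fgf12, Fgf13 and Fgf14 weigh in the intron sums and in the ratios of exons to introns as well. Neither was computed without these genes, so the intron difference need not hold for the others.

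To compare cell types, the base pairs covered in each gene were divided by all base pairs the list covers, and genes that differed at least 2-fold were counted, a gene covered in one list and bare in the other included. Between ESCs and MEFs, 34 of the 37 genes had a peak in at least 1 of the lists. Of these, 13 were higher in ESCs (47.3% of all genes compared in the same way) and 7 lower (17.5%). The higher genes were Fgf3, Fgf8, Fgf11, Fgf14, Fgf15, Fgf17, Fgf20, Fgf22, Fgf23, Fgfr3, Fgfr4, Bmp8a and Bmp8b, and the lower ones Fgf2, Fgf7, Fgf13, Bmp3, Bmp5, Bmp6 and Bmp15. Without its long transcript Fgfr2 joined the lower genes. Among the genes with peaks in both lists the ratio of ESCs to MEFs was highest for Fgf14, at 5.04, and lowest for Fgf7 and Bmp5, at 0.0939 and 0.0844.

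Between ESCs and brain, 15 of 32 genes were higher in ESCs (33.5% of all genes) and 5 lower, Fgf2, Fgf7, Fgf12, Bmp3 and Bmp5 (19.8%). Between ESCs and liver, 19 of 32 were higher in ESCs (35.5%) and 4 lower, Fgf21, Bmp1, Bmp3 and Bmp4 (28.0%). Of the 19, 14 had no peak in the gene in the liver list at all, among them Fgf3, Fgf6, Fgf8, Fgf9 and Fgf10. Among all genes the same held for 3442 of the 5821 that were higher in ESCs than in liver. The 3 comparisons share the ESC library, so their counts are not independent of each other.

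The comparison of shGFP with shSuz12 addresses whether 5hmC at these genes differs when Suz12 is knocked down. Of the 19 promoters covered in shGFP, 13 were bare in shSuz12, those of Fgf1, Fgf6, Fgf8, Fgf15, Fgf17, Fgf18, Fgf21, Fgf22, Fgfr1, Fgfr4, Bmp2, Bmp7 and Bmp10. This is 68.4% (43.4 to 87.4%), against 44.1% of all promoters covered in shGFP. Where a peak was also present in untransfected ESCs, 10 of 14 were bare in shSuz12, 71.4% (41.9 to 91.6%), against 37.3%. In the opposite direction, 4 of the 10 promoters covered in shSuz12 were bare in shGFP, those of Fgf3, Fgf7, Fgf9 and Bmp6 (29.2% of all). The shSuz12 list reaches down to a lower score than the shGFP list (30.34 against 50.02), and its peaks are narrower (median 564 bp, against 776 bp in shGFP). At a score of at least 80 in both lists, 9 of 10 were bare in shSuz12, as were 3348 of 4255 among all genes. Within 2 kb of the TSS, 9 of the 22 promoters covered in shGFP were bare in shSuz12, and with every coding TSS 10 of 22. The shares of all genes are not given for these windows. In shSuz12, windows at every coding TSS held 1847 bp for Fgfr1, 1565 for Fgfr4, 771 for Fgf1, 440 for Fgf18 and 112 for Fgf8. These genes are all among the 13.

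The base pairs covered in the 37 promoter windows were 12494 in ESCs, 14106 in shGFP and 4627 in shSuz12, so shSuz12 had 0.328 times the shGFP value. The whole shSuz12 list covered 0.689 times as many base pairs as the shGFP list, and relative to these totals the promoters were at 0.476, against 0.784 for all protein-coding promoters. Over the spans of the 37 genes the relative value was 0.981, or 0.861 without the long Fgfr2 transcript, against 1.02 over all genes. The promoter windows thus differed more between the hairpin libraries than the gene spans did. Among the genes covered in both ESCs and shGFP, the largest differences were those of Fgf1 (1594 bp in shGFP, 0 in shSuz12), Bmp8b (1952 and 686 bp), Fgf21 (1050 and 0), Fgf8 (1034 and 0) and Fgf15 (899 and 0). In the Fgf15 window, untransfected ESCs had 89 bp, far below shGFP and near shSuz12, and in the Bmp8b window 863 bp, also closer to shSuz12.

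**Figure D5:**
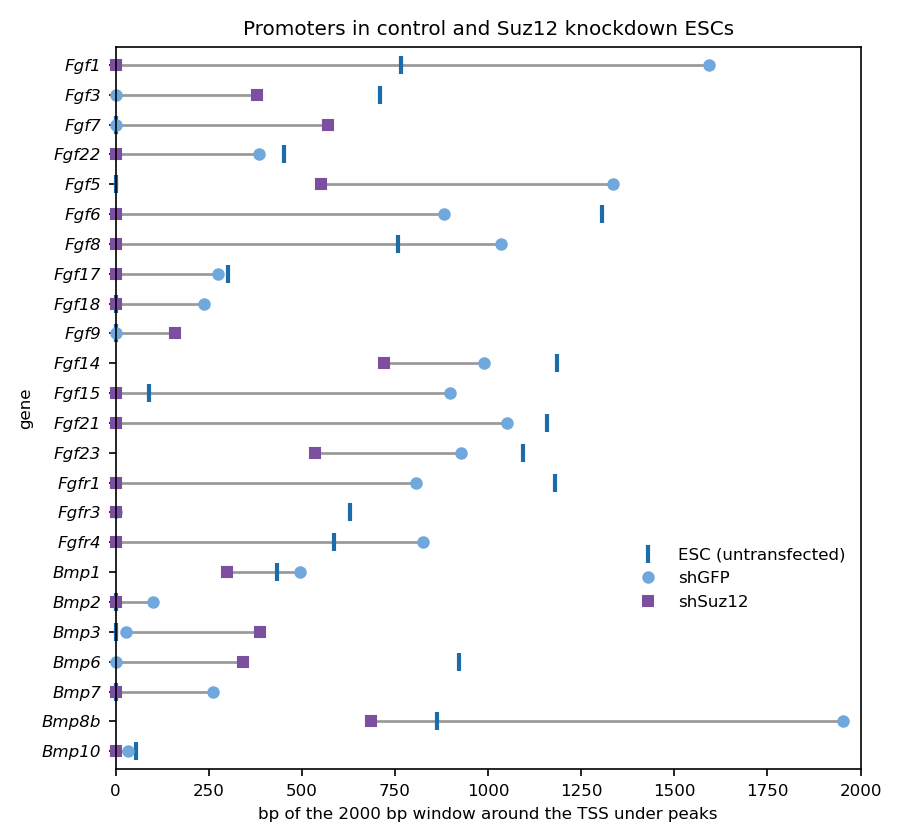
Base pairs of the 2000 bp around the TSS under 5hmC peaks (horizontal axis) for the 24 genes with a promoter peak in at least 1 ESC library (vertical axis). Circles are shGFP, squares shSuz12 and upright marks untransfected ESCs, and a grey line joins the hairpin libraries. In 13 genes the square stands at 0 and the circle above it, and in Fgf3, Fgf7, Fgf9 and Bmp6 the circle is at 0 and the square above it.

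The control hairpin library and the untransfected ESCs, both E14 cells without a Suz12 hairpin, also differed. Of the 17 promoters covered in ESCs, 3 were bare in shGFP (Fgf3, Fgfr3 and Bmp6; 32.0% of all genes), and of the 19 covered in shGFP, 5 were bare in ESCs (Fgf5, Fgf18, Bmp2, Bmp3 and Bmp7; 20%). At a score of at least 80 in both lists, 8 of 17 were bare in shGFP (3429 of 7139 among all genes) and 1 of 10 bare in ESCs (545 of 4255). The promoter sum was 1.13 times as high in shGFP as in ESCs, and 1.67 times relative to the library totals, against 1.25 times over all genes. These are differences between ESC libraries neither of which carries the Suz12 hairpin, and their cause was not tested. Over the spans, 9 of 31 genes were at least 2-fold higher in shGFP than in shSuz12 relative to the totals (16.8% of all genes), Fgf5, Fgf6, Fgf7, Fgf9, Fgf12, Fgf15, Fgf21, Bmp2 and Bmp8b, and 2 were lower, Fgf3 and Bmp5 (17.8%). Fgf7 appears among the higher genes over the span although its promoter was covered in shSuz12 alone.

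The promoters were also grouped by CpG content, which the choice of genes did not use. A promoter is of high CpG content (HCP) where a 500 bp window between 700 bp upstream and 200 bp downstream of the TSS exceeds both 0.75 in observed over expected CpG and 55% in GC content, of low content (LCP) where the CpG ratio of no window exceeds 0.48, and intermediate (ICP) otherwise. Of the 37 promoters 13 were HCP, 14 ICP and 10 LCP, or 35.1, 37.8 and 27.0%, against 34.2, 24.9 and 40.9% of all promoters. The ICP promoters, among them Fgf3, Fgf6, Fgf14, Fgf15, Fgf22, Fgfr3 and Fgfr4, were covered in 8 of 14 genes in ESCs, 3 in MEFs, 4 in brain, none in liver, 6 in shGFP and 4 in shSuz12. Over all genes the shares of ICP promoters were 41.1, 34.6, 24.0, 34.5, 37.3 and 29.2%. The HCP promoters were covered in 4, 4, 3, 3, 7 and 4 of 13 genes, against 27.1, 34.7, 19.8, 40.5, 22.3 and 17% of all HCP promoters. The LCP promoters were covered in 5, 5, 2, 3, 6 and 2 of 10, against 30.4, 23.5, 17.8, 16.9, 25.0 and 20.3%. Fgf21 and Fgf23, both LCP, had the lowest ratios of observed to expected CpG of the 37 windows, 0.162 and 0.136, and both were covered across the TSS in ESCs.

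Other genes of the pathways, 57 of a list of 58 found in the annotation (BMP receptors, antagonists, Smads and targets, and FGF co-receptors, adaptors and feedback genes), had a promoter peak in 18, 18, 12, 17, 17 and 11 cases, in the order ESCs, MEFs, brain, liver, shGFP and shSuz12. Over all genes the shares were 31.9, 30.1, 20, 29.4, 27.1 and 21.4%, so these counts stayed near the background. The FGF ligands had 10, 6, 4, 3, 11 and 6 of 22. The 6 Smad genes, which carry the BMP signal to the nucleus, had a peak in the gene in every list, with a median of 34.2% of the span covered in ESCs and 57.6% in liver. The 11 FGF feedback and target genes (Sprouty, Spred and Etv genes, Dusp6 and Il17rd) had no promoter peak in any of the 3 ESC libraries, 1 in MEFs, 1 in brain and 3 in liver. Of the 17 pathway promoters covered in shGFP, 8 were bare in shSuz12 (47.1%), a share near the 44.1% over all genes. They were those of Acvr1, Fstl1, Sost, Sostdc1, Tll1, Id2, Msx1 and Kl.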

How the data were processed

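GLIB-Seq peak lists of 6 libraries were used, and 2 RNA-Seq libraries of the hairpin cells were not analysed here. The authors captured 5hmC with the Hydroxymethyl Collector, sequenced on a HiScanSQ, called bases with CASAVA 1.8 and mapped to mm9 with Bowtie 0.12.7, where reads with 1 hit in the genome were kept and duplicates merged. MACS 1.4.1 then called peaks in each library on its own. The control and the threshold of each list are not given in the sources used here. The deposited values are peak positions and a score per peak, and the score served here to rank or filter peaks only. A list with a lower threshold or more reads can hold more and wider peaks, so counts between lists rest on both.

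Genes and TSSs came from GENCODE M1 on NCBIM37, the same assembly as mm9. Peaks and covered base pairs were counted in the gene span and in TSS ± 1 kb, with an overlap of at least 1 bp, and 1 mitochondrial peak was left out in each of the 4 cell types and 3 in each hairpin library. Sequences were read from NCBIM37. The groups were those of the labels, with 1 library each, so no test between groups was made. Differences of 2-fold relative to the library total were counted. The genes, the pathway list and the marker lists were chosen with earlier results of these data known. All 37 genes could be named, and those with peak positions were the 4 receptors, the 6 with the largest promoter sum over the libraries and the 5 covered in ESCs and shGFP with the largest difference to shSuz12. Fgf6, Fgf22, Fgf5, Fgf23 and the other positions given were chosen after their values were seen.

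Alternatives were the best 50% of each list by score, lists cut to the same number of peaks, a score of at least 80, windows of 500 bp and 2 kb, every coding TSS, at least 200 bp covered, spans with 5 kb flanks or without the promoter and a 3-fold difference. The interval counter was tested on simulated peaks, with 0 of 20000 windows wrong. Python 3.11.15, numpy 2.4.6, scipy 1.17.1, matplotlib 3.10.9 and samtools 1.23.1 were used.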

Additional observations from a re-analysis of the deposited data

How the results depend on the processing

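No paired analysis was possible because there is 1 library for each condition. Of 140 values recomputed under an alternative, 86 stayed within the range set for them and 54 moved, and for these the cause was not tested beyond the construction of the alternative, which keeps fewer peaks or other windows. Promoter counts moved to 6 in MEFs, 5 in brain, 3 in liver, 10 in shGFP and 6 in shSuz12 with the 50% of peaks with the highest scores, to 5 in MEFs, 4 in brain, 10 in shGFP and 1 in shSuz12 at a score of at least 80, to 3 in brain and 11 in shGFP within 500 bp, to 13 in liver and 18 in shSuz12 within 2 kb, and to 11 in liver and 17 in shSuz12 with every coding TSS. The covered percentage of the summed spans moved, in the order ESCs, MEFs, brain, liver, shGFP and shSuz12, to 6.95, 8.81, 7.95, 5.39, 4.58 and 2.80 with the best 50% of peaks. With equal numbers of peaks it was 8.74, 9.98, 10.7, 6.99 and 4.60 without liver, which kept its value. At a score of at least 80 it was 6.91 in MEFs, 4.58 in brain, 4.97 in shGFP and 1.31 in shSuz12. With 5 kb flanks it was 10.5 in ESCs, 11.6 in brain, 8.07 in liver, 7.41 in shGFP and 4.96 in shSuz12, and without the promoter windows 10.1 in ESCs, 11.8 in brain and 6.97 in shGFP. Without the transcript of 3.01 Mb of Fgfr2, an alternative chosen after seeing the data, it was 7.46, 10.2, 6.99, 5.82, 5.85 and 3.47. The 13 promoters covered in shGFP and bare in shSuz12 became 6 with the best 50% of peaks and 7 within 500 bp. Counts of genes that differed over the span moved to 8 higher in ESCs than MEFs at 3-fold, 3 lower in ESCs than brain with the best 50% of peaks, 2 lower in ESCs than liver with equal numbers of peaks and at 3-fold, 19 higher in shGFP than shSuz12 at a score of at least 80, and 4, 1 and 1 lower in shGFP with the best 50% of peaks, at a score of at least 80 and at 3-fold. Since the depth of the libraries is unknown, a bare window means that no peak was listed there, not that 5hmC is absent.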

Other observations

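Some of the FGF and BMP genes are neighbours. Fgf3, Fgf4 and Fgf15 lie in this order on chromosome 7, with 16.9 kb between Fgf3 and Fgf4 and 31.3 kb between Fgf4 and Fgf15. Between the end of Fgf3 and the start of Fgf15 the ESC list had 10 peaks, shGFP 8 and shSuz12 7, covering 10470, 7391 and 3739 bp, whereas MEFs had 3 (2503 bp), brain 1 (892 bp) and liver 0. None of them lay in Fgf4, which is part of that stretch. Fgf6 and Fgf23 lie 48.2 kb apart on chromosome 6, and the DNA between them held 7 peaks in MEFs, 5 in ESCs and 3 in each hairpin library, but 0 in brain and liver. MEFs thus had peaks between these genes although the promoters of both were bare there. Between Bmp8b and Bmp8a, 180.5 kb apart on chromosome 4, there were 40, 30, 20, 10, 31 and 26 peaks in the order ESCs, MEFs, brain, liver, shGFP and shSuz12. Bmp1 and Fgf17, 115.9 kb apart on chromosome 14, had 34, 18, 17, 23, 27 and 25 peaks between them. These are values of single libraries, and no difference between them was tested.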
